A study of Bubalus bubalis with 6 samples.

Results

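Circular RNAs (circRNAs) of serine/threonine kinase genes were examined in subcutaneous adipose tissue of young and adult Chinese buffaloes. A circRNA is a closed loop that forms when the end of an exon is spliced back to an upstream start. It is counted by the back-spliced reads that cross the closing junction, and the gene it comes from is its host gene. Members were all circRNAs with a single host symbol that starts with MAP2K, MAP3K, MAP4K, MAPK, STK, PRKA, PRKC, PRKD, CAMK, CSNK, DYRK, ROCK, TAOK, WNK or NEK, or with CDK or MARK and a digit. These were 289 of the 14204 circRNAs with a single host symbol (14990 circRNAs in all), and they came from 78 of 4000 host genes. The rule works on names, and 6 of the 78 host genes encode a partner or a relative by name and not a protein kinase. They were MAPKAP1 (SIN1, a subunit of the mTORC2 complex), CAMKMT (a methyltransferase), CDK5RAP1, CDK5RAP2 and the regulatory subunits of protein kinase A, PRKAR2A and PRKAR2B. PRKDC, the catalytic subunit of DNA-dependent protein kinase, entered through the prefix PRKD.

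The young group was 3 buffaloes of 6 months and the adult group 3 buffaloes of 30 months, all of the Xinyang swamp type and kept at the same farm on equivalent forage. Each animal gave 1 library of rRNA-depleted total RNA, which holds linear and circular RNA. The tissue is a mixture of cell types, and in such bulk samples fewer cells of a type and less RNA per cell cannot be told apart. Age and animal are the only differences that the labels record, and with 3 animals per group the spread is that between animals.

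Serine/threonine kinases transfer phosphate to serine and threonine residues, often in relays. In the MAP kinase cascade a MAP4K activates a MAP3K, such as a TAO kinase, which activates a MAP2K, which activates a MAP kinase such as JNK (MAPK8, MAPK9) or p38 (MAPK14). In adipocytes, protein kinase A, a complex of catalytic and regulatory subunits, is switched on by cyclic AMP and starts the breakdown of stored triglyceride, AMP-activated kinase restrains fat synthesis, and ROCK, the Hippo kinases STK3 and STK4 and the microtubule affinity regulating kinases (MARK) act on cell shape, growth and polarity.

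Of the 83165 back-spliced reads in the 6 libraries, 1741 (2.09%) came from kinase host genes. The libraries held 10745 to 17680 back-spliced reads, of which kinase host genes took 2.29%, 1.93% and 2.10% in the young and 1.83%, 2.37% and 1.90% in the adult libraries. Here and below, values of single libraries are listed in the order of replicates 1, 2 and 3. The Wilson 95% confidence intervals of these shares, which cover counting error only, ran from 1.61% to 2.61% and each young interval overlapped each adult one. Those of adult replicates 1 and 2 did not overlap each other. The share was 2.11% ± 0.179 in the young and 2.03% ± 0.293 in the adult group (SD, n = 3), a difference within the spread between animals. Distinct kinase circRNAs numbered 102, 90 and 107 in the young and 61, 98 and 54 in the adult libraries. Adult replicate 2 lay within the young range and the other adult libraries below it. At an equal number of 10745 back-spliced reads per library, 86.4 ± 3.92 kinase circRNAs were expected in the young and 65.0 ± 16.0 in the adult group. The adult libraries held fewer distinct circRNAs in all, and kinase circRNAs made up 1.96% ± 0.00919 of the distinct circRNAs in the young and 1.94% ± 0.212 in the adult group.

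Kinase circRNAs resembled those of other host genes in most features that the table records. Of the 289, 261 (90.3%) were made of exons, 27 (9.34%) were of the exon-intron type and 1, from CSNK2A2, was intronic. Among the other host genes, exon circRNAs made up 91.5% and exon-intron circRNAs 7.75%. A total of 189 kinase circRNAs (65.4%) were seen in a single library and 115 (39.8%) by a single read, against 64.6% and 38.2% of the others. Reads were found only in young libraries for 134 (46.4%), only in adult libraries for 82 (28.4%) and in both groups for 73. The corresponding shares among the others were 47.1% and 28.2%. The authors marked 17 (5.88%) as published for cattle, against 4.74% of the others. The median distance between the junction positions, which includes introns that may be absent from the circRNA, was 14039 bp, against 11875 bp. It ranged from 191 bp in MARK3 to 169323 bp in PRKCE, each seen by 1 read. No test was made of these differences.

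A few genes supplied most of the reads. The 10 host genes with the most back-spliced reads held 1009 of the 1741 reads (58.0%), while the median host gene had 7 reads and 20 had at most 3. MAPK8 led with 202 reads, followed by MARK1 with 146, CSNK1G3 with 135, CDK13 with 115 and STK3 with 102. Then came DYRK1A with 82, MARK3 with 76, MAPKAP1 with 63, and MAP3K5 and NEK1 with 44 each. Reads were present in all 6 libraries for 20 host genes, only in young libraries for 20 and only in adult libraries for 7. Genes with more distinct circRNAs had more reads (Spearman correlation 0.81 over 78 genes). This relation is partly built in, because each distinct circRNA adds its own reads to the total of its gene. The correlation of reads with mRNA level was 0.38 over 78 genes. These genes share the same 6 libraries, so both values are descriptions.

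**Figure D1:**
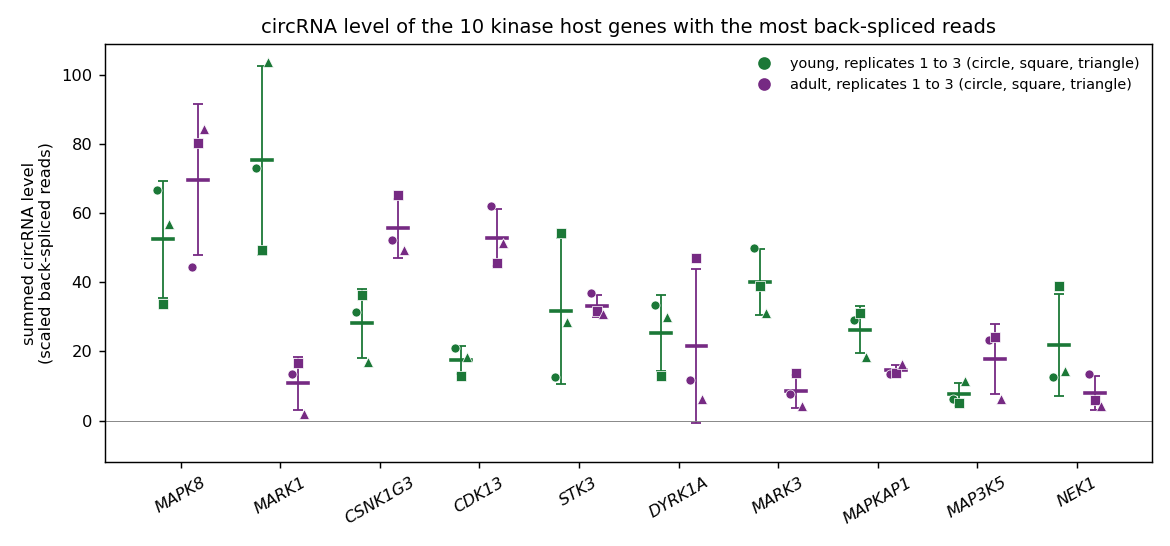
Summed circRNA level of the 10 kinase host genes with the most back-spliced reads. The x axis gives the genes and the y axis the scaled back-spliced reads summed over all circRNAs of a gene. Points are the 6 libraries, bars the group mean and whiskers 1 SD (n = 3). The young points of MARK1 and MARK3 lie above the adult points, those of CDK13 and CSNK1G3 below them, and MAPK8 overlaps between the ages.

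The most abundant circRNAs were mostly a single favoured loop per gene. MAPK8 (JNK1, a kinase that stress and inflammatory signals activate) had 144 of its 202 reads (71.3%) on the loop chr28:43167261-43170732 (UMD3.1, the cattle build to which the buffalo reads were aligned, positions as deposited). This loop had 24, 10 and 23 reads in the young and 16, 34 and 37 in the adult libraries, and the groups overlapped. Its scaled level of 36.2 ± 12.5 in the young and 52.9 ± 22.6 in the adult group differed by 0.50 on the log2 scale (SE 0.46, limma adjusted p = 0.614). The other 8 MAPK8 loops had 1 to 22 reads, and 3 of the 9 loops ended at position 43170732, which carried 78 young and 108 adult reads.

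Other genes shared splice positions too. Of the 265 circRNAs in kinase host genes with at least 2 circRNAs, 205 (77.4%) shared a start or an end with another circRNA of the same gene, against 78.0% among the other host genes. NEK1, a kinase of cilia and DNA repair, had the most distinct circRNAs, 16, with 6 from 1 start position and 5 to 1 end position. ROCK1, a kinase that promotes actomyosin contraction, had 14, the MAP4K kinase MAP4K4 had 11 and MARK1 had 10. Then MAPK8, DYRK1A, MAP4K5 and CSNK1G3 had 9 each. The favoured loop of NEK1 held only 20.5% of its reads, that of ROCK1 42.5% and that of MARK1 84.9%, so the genes with many loops differed in how far 1 loop prevailed.

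**Figure D2:**
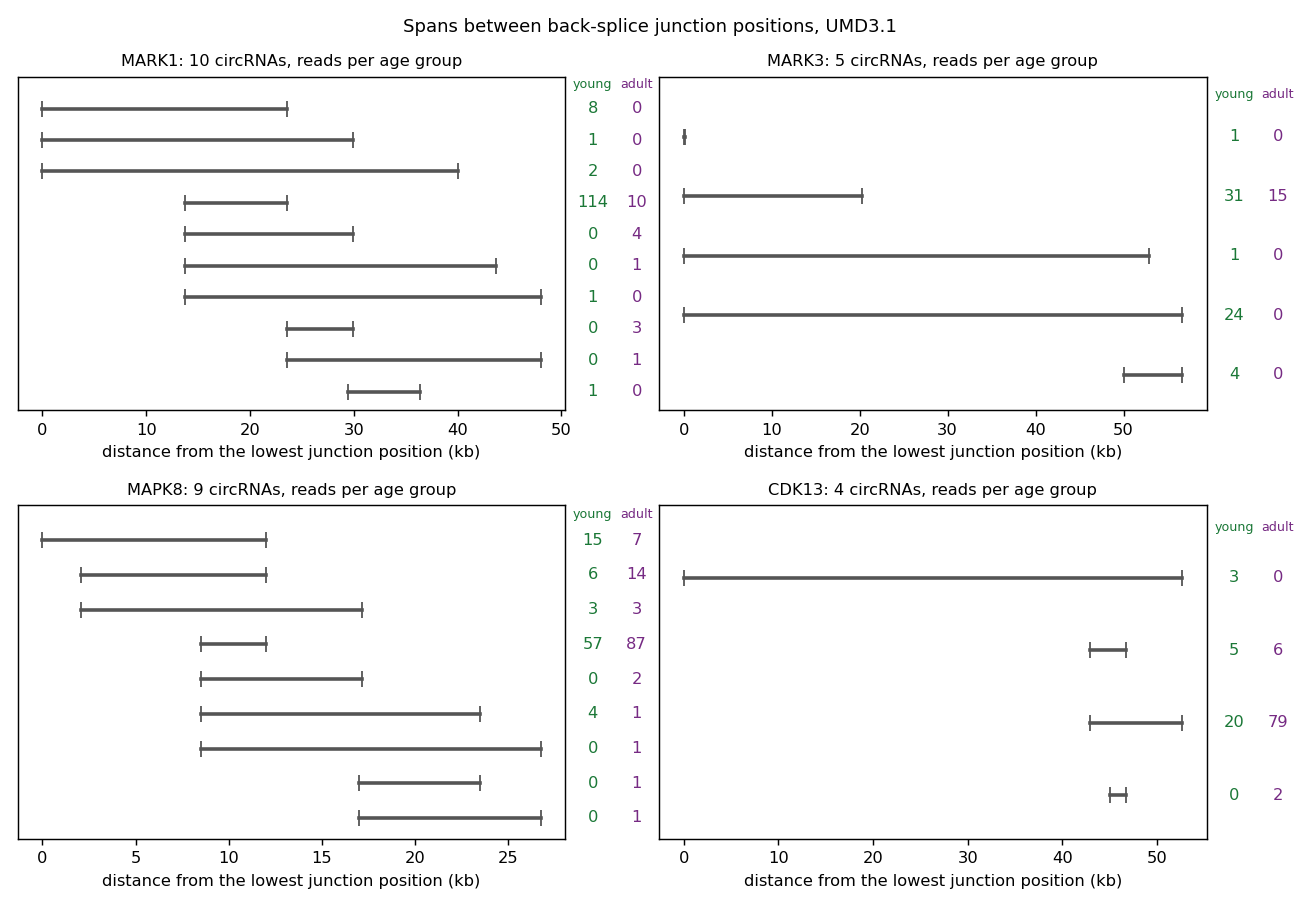
Distance between the junction positions of every circRNA of MARK1, MARK3, MAPK8 and CDK13. The x axis gives the distance in kb from the lowest junction position of the gene (UMD3.1), each line is 1 circRNA, and the numbers beside it are its back-spliced reads summed over 3 young and over 3 adult libraries. In MARK1, 114 of 127 young reads sit on 1 loop, which had 10 adult reads, and in CDK13 the loop with 20 young reads had 79 adult reads.

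Both well-read MARK genes had less circRNA in adult adipose tissue. MARK kinases phosphorylate microtubule-associated proteins and so control microtubule dynamics and cell polarity. The circRNAs of MARK1 had 35, 19 and 73 back-spliced reads in the young and 7, 11 and 1 in the adult libraries. Every young library was above every adult library. The summed level of MARK1 circRNAs fell from 75.3 ± 27.3 to 10.8 ± 7.70 scaled reads (SD, n = 3), a log2 fold change (log2FC) of −2.98 (SE 0.62, limma adjusted p = 0.0107). The circRNAs of MARK3 had 24, 15 and 22 reads in the young and 4, 9 and 2 in the adult libraries, again without overlap. Their summed level fell from 40.1 ± 9.46 to 8.50 ± 4.81 scaled reads (log2FC −2.22, SE 0.59, limma adjusted p = 0.0442). MARK4, the remaining member, had 2 reads in young replicate 1 and none elsewhere.

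MARK1 and MARK3 were the only 2 of 47 tested kinase host genes whose summed circRNA level passed the adjusted p of 0.05, and no kinase host gene was called higher. Over all 2090 host genes tested, 65 (3.11%) were called, of which 14 (0.67%) were higher and 51 (2.44%) lower in adults. The median log2 fold change was −0.24 over the 47 kinase host genes and −0.40 over all, or −0.24 and −0.39 with each gene that had no read in a group set at its bound (a floor of 3 reads over the group). Of the 47, 18 had a positive change (38.3%, against 37.7% of all). With levels as reads per 10000 back-spliced reads of a library the median over all host genes moved from −0.40 to −0.13, and the calls over all host genes were 36 higher and 52 lower. The 2 MARK genes kept their calls on that scale and CDK13 was called higher (adjusted p = 0.0187). Both MARK calls were lost without the trend in eBayes (0.108 for MARK1 and 0.120 for MARK3) and with a pseudocount of 0.1 (0.0538 for both), and that of MARK3 also with limma voom on the recovered reads (0.0692). The MARK1 call was lost without any 1 young library (adjusted p from 0.140 to 0.163). The MARK3 call was lost without any 1 of the 6 libraries (0.0559 to 0.191).

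Most MARK1 reads were on a single loop. The loop chr16:24810832-24820654 (exon type, 9822 bp between the junction positions) had 32, 14 and 68 reads in the young libraries, none in adult replicates 1 and 3 and 10 in adult replicate 2. The young libraries were all above the adult ones. Its scaled level was 66.5 ± 30.2 in the young and 5.05 ± 8.75 in the adult group, a log2FC of −4.63 (SE 1.03, adjusted p = 0.0605). With 1 library left out the log2FC ran from −5.97 to −3.96, and the adjusted p was 0.0109 without adult replicate 2 and 0.0875 to 0.153 without any other. The start position 24810832 served 4 MARK1 loops with 115 young and 15 adult reads. A longer loop with the same end, chr16:24797067-24820654, had 8 young reads and no adult read, a level at least 2.94-fold lower in adults. The remaining MARK1 loops had 5 young and 9 adult reads together. Of these adult reads 7 came from adult replicate 1, which had no read on the main loop. Adult replicate 2 had 10 of its 11 MARK1 reads on the main loop, and adult replicate 3 had 1 MARK1 read in all.

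MARK3 made 5 circRNAs, of which 4 began at position 69696877 on chromosome 21. The shorter abundant loop, chr21:69696877-69717199, had 11, 8 and 12 reads in the young and 4, 9 and 2 in the adult libraries. Its scaled level was 20.2 ± 2.98 and 8.50 ± 4.81 (log2FC −1.28, SE 0.62, adjusted p = 0.270), with every young library above every adult one. The longer loop, chr21:69696877-69753491, had 12, 5 and 7 reads in the young libraries and none in the adult libraries. This loop met the filter only through its young libraries, which favoured a small p, so its values are a description. It was at least 8.70-fold lower in adults, from 16.0 ± 7.98 scaled reads to a floor of 1.84, and missed the threshold (limma adjusted p = 0.0515). It is the MARK3 circRNA that the study followed up by qRT-PCR. The paper counted it as differentially expressed by fold change and a p-value from DESeq2, a criterion unlike the adjusted p used here. It checked the junction by Sanger sequencing and reported the same pattern between the ages by qRT-PCR. The paper also reported a strong positive correlation of this circRNA with PRDM16. That correlation was found by sequencing and by qRT-PCR, which included further buffaloes of variable age. Another loop, chr21:69746975-69753491, ends at the same position as the long loop and had 4 young reads and no adult read (at least 1.36-fold lower). All 15 adult reads of MARK3 were thus on the shorter loop, against 31 of 61 young reads.

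**Figure D3:**
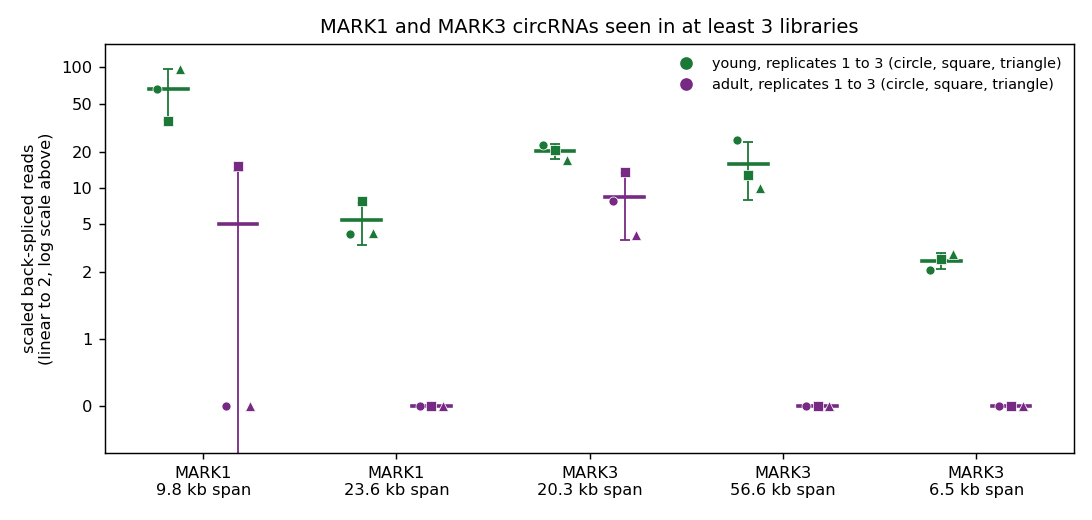
Scaled back-spliced reads of the 5 MARK1 and MARK3 circRNAs seen in at least 3 libraries, named by the distance between their junction positions. The y axis is linear up to 2 and logarithmic above. Points are libraries, bars group means and whiskers 1 SD (n = 3, cut at the axis where the SD exceeds the mean). Adult points lie at 0 for the 3 loops without an adult read, and the 20322 bp loop of MARK3 is the only one with reads in all 6 libraries.

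The mRNA of neither gene passed the test. mRNA levels are FPKM summed over the transcripts that the circRNA table lists for a host symbol, and reads from within a circRNA also count toward them. MARK1 mRNA was at 11.1, 11.9 and 17.9 FPKM in the young and 26.1, 24.0 and 13.6 FPKM in the adult libraries, with overlap between the groups (log2FC 0.58, SE 0.30, adjusted p = 0.214). MARK3 mRNA was at 17.2, 22.0 and 22.9 FPKM in the young and 18.2, 18.3 and 22.0 FPKM in the adult libraries (log2FC −0.07, SE 0.20, adjusted p = 0.807). The change of circRNA minus the change of mRNA was tested for 47 kinase host genes and passed for 2 of them, both lower. Over all 2080 host genes it passed for 33 (1.59%), 2 higher (0.0962%) and 31 lower (1.49%). For MARK1 the difference was −3.57 on the log2 scale (SE 0.66, adjusted p = 0.00868), and for MARK3 −2.14 (SE 0.76, adjusted p = 0.145). The MARK1 call was lost without any 1 young library (0.0874 to 0.114), without the trend (0.0589) and with a pseudocount of 0.1 (0.0544). With reads per 10000 back-spliced reads, 17 host genes passed as higher and 74 as lower.

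NEK5 was the other gene called, but it entered the test only through its young libraries, so its call was favoured by the filter and is given as a description. NEK kinases are relatives of the mitotic regulator NIMA and act on centrosomes, cilia and the cell cycle. NEK5 circRNAs had 4, 5 and 2 reads in the young libraries and none in adults, and the summed level was at least 4.38-fold lower in adults. Its mRNA was low, at 1.70, 1.02 and 0.326 FPKM in the young and 0.120, 1.42 and 1.53 FPKM in the adult libraries, with overlap. The circular minus linear difference was −2.96 (SE 0.65, adjusted p = 0.0237). It rests on 11 reads, and the call was lost without any 1 library except adult replicate 1 (0.0511 to 0.234). The circRNA change alone missed the threshold (adjusted p = 0.107).

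CDK13 and CSNK1G3 had more circRNA in every adult library than in any young one. CDK13 pairs with cyclin K and phosphorylates RNA polymerase II. Its circRNAs had 10, 5 and 13 reads in the young and 32, 30 and 25 in the adult libraries, and the summed level was 17.4 ± 4.06 and 53.0 ± 8.36 scaled reads (log2FC 1.56, SE 0.47, adjusted p = 0.0719). The loop chr4:81762585-81772269 carried 20 of 28 young and 79 of 87 adult reads (log2FC 1.79, SE 0.46, adjusted p = 0.0829). CDK13 mRNA lay lower in every adult library, at 22.9, 31.0 and 26.0 FPKM in the young and 17.6, 17.1 and 18.2 FPKM in the adult group (log2FC −0.56, SE 0.19, adjusted p = 0.0753). The difference of both changes was 2.12 (SE 0.64, adjusted p = 0.0884). It passed with reads per 10000 back-spliced reads (adjusted p = 0.0159).

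CSNK1G3 encodes a membrane-bound casein kinase of the CK1 family. Its circRNAs had 15, 14 and 12 reads in the young and 27, 43 and 24 in the adult libraries (log2FC 1.01, SE 0.45, adjusted p = 0.194). CSNK1G3 mRNA stayed between 13.5 and 15.9 FPKM in all 6 libraries. Of its 9 loops, 4 ended at chr7 position 31547896, with 29 young and 76 adult reads. The loop chr7:31531940-31547896 had 5, 4 and 4 reads in the young and 16, 9 and 17 in the adult libraries, without overlap (log2FC 1.43, SE 0.60, adjusted p = 0.189). The loop chr7:31516094-31547896 had 3, 3 and 5 and 1, 16 and 6 reads, with overlap (log2FC 0.31, SE 0.85, adjusted p = 0.863). Loops of 1 gene thus differed in their values across the animals.

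Among the 47 kinase host genes tested, 8 had a summed circRNA level that was lower in every adult than in any young library and 2 had one that was higher. Over all host genes tested these shares were 17.8% and 6.41%. The 8 were MARK1, MARK3, MAPKAP1, MAPKAPK5, MAP3K2, NEK5, STK4 and STK10, and the 2 were CDK13 and CSNK1G3. NEK5, STK4 and STK10 passed the filter only through their young libraries, which fixed their place among the 8. MAP3K2 (MEKK2, upstream of ERK5 and JNK) had 7, 5 and 13 reads in the young and 1, 2 and 0 in the adult libraries (log2FC −2.83, SE 0.92, adjusted p = 0.10), and its mRNA was at 18.6 ± 5.38 and 17.2 ± 1.92 FPKM. MAPKAPK5 (PRAK, a kinase downstream of p38) had 10, 9 and 10 and 2, 2 and 6 reads, while its mRNA was higher in every adult library, at 16.4 ± 3.93 and 27.0 ± 1.36 FPKM (adjusted p = 0.0570). MAPKAP1 showed the same opposite order with smaller steps, with 14, 12 and 13 and 7, 9 and 8 reads and 13.3 ± 3.93 and 19.3 ± 1.29 FPKM (adjusted p for mRNA = 0.167).

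No single kinase circRNA passed the test. Of the 58 tested by limma, those with a read in at least 3 libraries, 12 (20.7%) had an unadjusted p under 0.05, against 22.1% of all 2834 tested. Among the 12 were the 7 loops with reads in every young and no adult library, which met the filter only through the young libraries. Their small p was favoured by the filter, so the count is a description. Over all circRNAs 25 (0.882%) passed, 3 (0.106%) higher and 22 (0.776%) lower. With limma voom on the recovered reads 5 kinase circRNAs passed, 1 higher and 4 lower, against 79 higher and 182 lower of all 2834. The median log2 fold change was −0.50 over the 58 and −0.34 over all, or −0.46 and −0.30 with circRNAs absent from a group set at their bound. With reads per 10000 back-spliced reads the medians were −0.16 and −0.09, 19 circRNAs passed as higher and 38 as lower, and 3 of them were kinase circRNAs. The smallest p among lower circRNAs belonged to the long MARK3 loop, the main MARK1 loop and the MAP3K2 loop chr2:5131646-5137786. The long MARK3 loop met the filter through its young libraries alone. The MAP3K2 loop had 7, 4 and 10 reads in the young and 1, 0 and 0 in the adult libraries (adjusted p = 0.0829). Among higher circRNAs the smallest p belonged to the CDK13 loop, the CSNK1G3 loop from position 31531940 and the MAP3K5 loop chr9:75680205-75686032. MAP3K5 (ASK1, an activator of JNK and p38 under stress) had 2, 0 and 5 and 12, 15 and 2 reads on that loop, with overlap (log2FC 2.04, SE 0.99, adjusted p = 0.269).

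Reads in all 3 young libraries but in none of the adult ones were found for 7 of the 58, against 9.81% of all circRNAs tested. These loops met the filter only through the young libraries, so the count is a description. The reverse held for none of the 58 and for 1.66% of all. Beside the 2 MARK3 loops and the longer MARK1 loop, the 7 were loops of STK24, NEK5, NEK1 and STK4. STK24 (MST3) gave the loop chr12:79450309-79450896 with 4, 7 and 2 young reads, at least 5.32-fold lower in adults. The NEK5 loop chr12:21538161-21555208 and the NEK1 loop chr8:1339307-1350991 had 9 young reads each, at least 3.65-fold and 3.50-fold lower. The Hippo kinase STK4 (MST1) gave chr13:74121116-74141497 with 7 young reads, at least 2.90-fold lower.

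None of the other well-read loops passed the test. The STK3 loop chr14:67763758-67764595 had 5, 16 and 15 reads in the young and 6, 10 and 4 in the adult libraries, while a second STK3 loop, chr14:67888902-67901763, had 1, 4 and 3 and 11, 4 and 7 reads. Their log2 fold changes were −0.84 and 1.24 (adjusted p = 0.540 and 0.435), and the summed level of STK3 (MST2, a core Hippo kinase) was 31.8 ± 21.1 and 33.2 ± 3.20 scaled reads. The MAPKAP1 loop chr11:96465073-96482791 had 8, 6 and 12 and 4, 5 and 3 reads, and its scaled levels of 16.4 ± 0.787 and 7.17 ± 0.869 did not overlap (log2FC −1.10, SE 0.58, adjusted p = 0.328). The exon-intron loop chr9:40019646-40074119 of CDK19, a kinase of the Mediator complex, had 3, 3 and 8 and 4, 2 and 13 reads (log2FC 0.10, SE 0.80, adjusted p = 0.954). DYRK1A, a kinase with a role in growth and differentiation, had 16, 5 and 21 and 6, 31 and 3 reads over its 9 loops. Its scaled level was 25.4 ± 10.9 in the young and 21.6 ± 22.2 in the adult group, with a wider spread within the adults than between the group means.

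The linear transcripts of 11 kinase host genes changed with age. Of the 78 host genes, 76 passed the mRNA filter of a mean of 0.5 FPKM, and 9 of them rose and 2 fell from young to adult. Over all 14695 genes and transcripts tested, 2909 (19.8%) passed, 1543 (10.5%) higher and 1366 (9.3%) lower. The median log2 fold change was 0.03 over the 76 and 0.01 over all. In 20 of the 76 every adult library was above every young one and in 15 every adult library was below, against 22.3% and 20.4% of all. Mean levels ran from 0.121 FPKM for WNK3 to 97.1 FPKM for PRKAR2A. The depth behind an FPKM value is unknown here.

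Of the 6 protein kinase A and AMP-activated kinase subunits 2 rose and none fell, against 10.5% called higher and 9.3% lower over all genes and transcripts tested. PRKACA, the catalytic alpha subunit, was at 9.05, 5.59 and 13.2 FPKM in the young and 77.6, 85.2 and 49.1 FPKM in the adult libraries. Every adult library was above every young one. The mean rose from 9.28 ± 3.80 to 70.6 ± 19.0 FPKM (log2FC 2.83, SE 0.34, adjusted p = 0.00251). The type II alpha regulatory subunit PRKAR2A rose from 52.0 ± 21.8 to 142 ± 27.6 FPKM (log2FC 1.49, SE 0.32, adjusted p = 0.0204). The beta catalytic subunit PRKACB was at 22.2, 13.6 and 18.8 and 30.2, 24.0 and 19.7 FPKM (log2FC 0.42, SE 0.25, adjusted p = 0.271). PRKAR2B, the regulatory subunit typical of adipocytes, varied more within the young group than between groups, at 58.9, 15.1 and 163 and 109, 66.3 and 67.7 FPKM (log2FC 0.56, SE 0.76, adjusted p = 0.619). The AMP-activated kinase subunit PRKAA2 was at 4.56, 1.49 and 6.09 and 9.82, 8.75 and 9.01 FPKM (log2FC 1.14, SE 0.38, adjusted p = 0.0770), and PRKAA1 had a log2FC of −0.22 (adjusted p = 0.442). The circRNAs of PRKACA and PRKAR2A were rare, with 2 and 9 reads.

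**Figure D4:**
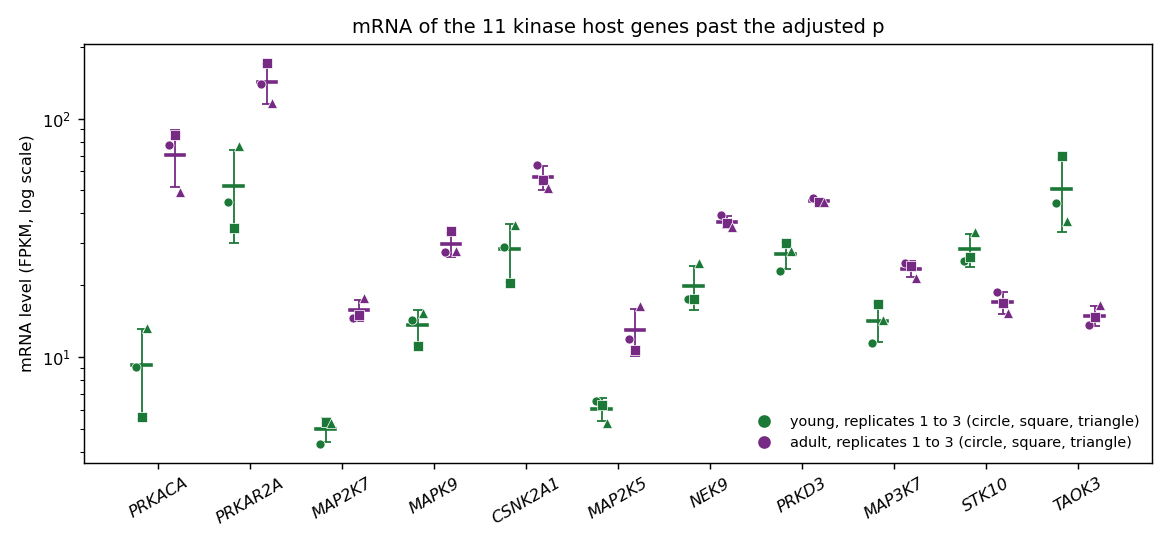
mRNA level of the 11 kinase host genes that passed the adjusted p of 0.05. The y axis is FPKM on a log scale, points are the 6 libraries, bars group means and whiskers 1 SD (n = 3). PRKACA rose from 9.28 to 70.6 FPKM, and TAOK3 fell from 50.4 to 14.9 FPKM. In all 11 genes the young and adult points do not overlap.

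Of the 22 genes grouped by name as the MAP kinase cascade, MAPKAP1 among them, 4 rose and 1 fell. Over all genes and transcripts tested, 10.5% were called higher and 9.3% lower. MAP2K7 (MKK7, which activates JNK) was at 4.33, 5.32 and 5.27 FPKM in the young and 14.6, 15.0 and 17.6 FPKM in the adult libraries (log2FC 1.49, SE 0.19, adjusted p = 0.00297). MAPK9 (JNK2) rose from 13.6 ± 2.19 to 29.7 ± 3.45 FPKM (log2FC 1.08, SE 0.20, adjusted p = 0.0126). MAP3K7 (TAK1, which relays cytokine and TGF-beta signals) rose from 14.1 ± 2.63 to 23.4 ± 1.77 FPKM (log2FC 0.70, adjusted p = 0.0498), and MAP2K5 (which activates ERK5) from 6.04 ± 0.670 to 13.0 ± 2.94 FPKM (0.98, adjusted p = 0.0230). MAPK8, the paralog of MAPK9 and the richest in circRNA, was at 17.4 ± 7.10 and 21.0 ± 2.86 FPKM (0.32, SE 0.29, adjusted p = 0.461). The gene that fell was TAOK3, a TAO kinase of the MAP3K tier, from 44.2, 69.7 and 37.4 FPKM in the young to 13.6, 14.7 and 16.5 FPKM in the adult libraries (log2FC −1.65, SE 0.26, adjusted p = 0.00755). Its relative TAOK1 was at 42.4 to 55.4 and 50.7 to 57.1 FPKM. MAPK14 had a log2 fold change of 0.37 (adjusted p = 0.207), with every adult library above every young one.

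The other genes that rose were NEK9, CSNK2A1 and PRKD3. NEK9, a mitotic kinase that activates NEK6 and NEK7, rose from 19.9 ± 4.14 to 36.9 ± 2.08 FPKM (log2FC 0.87, SE 0.20, adjusted p = 0.0260). CSNK2A1, the catalytic alpha subunit of casein kinase 2, rose from 28.4 ± 7.68 to 56.8 ± 6.65 FPKM (1.01, SE 0.25, adjusted p = 0.0304). Its circRNAs had no read in the young and 0, 8 and 10 reads in the adult libraries and were not tested. PRKD3, a protein kinase D, rose from 26.9 ± 3.53 to 45.2 ± 0.937 FPKM (0.73, SE 0.18, adjusted p = 0.0314). STK10 (LOK, a kinase of lymphocytes and other cells that phosphorylates ezrin, radixin and moesin) fell from 28.3 ± 4.50 to 16.9 ± 1.75 FPKM (−0.70, SE 0.19, adjusted p = 0.0459), and its circRNAs had 4, 1 and 2 young reads and no adult read, at least 2.50-fold lower.

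PRKACA, MAP2K7 and TAOK3 kept their mRNA calls with each library left out (adjusted p up to 0.0218, 0.0227 and 0.0441). The other 8 lost theirs without at least 1 library, MAPK9 only without adult replicate 2 (0.0713) and STK10 without any 1 library (0.0583 to 0.153). The number of kinase host genes called was 4 without young replicate 1, adult replicate 1 or adult replicate 3, 3 without adult replicate 2, 9 without young replicate 2 and 12 without young replicate 3.

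The 8 genes with a CDK name, CDK5RAP1 and CDK5RAP2 among them, had 67 young and 133 adult reads over 20 circRNAs. Of these reads CDK13 gave 28 and 87, and none of the 8 mRNAs passed. In CDK7, CDK12, CDK13, CDK19 and CDK5RAP2 every adult library was below every young one, against 20.4% of all genes and transcripts, and their log2 fold changes ran from −0.69 to −0.45 with adjusted p from 0.0753 to 0.133. The 5 casein kinases had 47 and 119 reads, mostly from CSNK1G3. The 9 genes with the prefix PRKC or PRKD had 48 and 41 reads over 22 circRNAs. They include PRKDC, which is not a protein kinase C or D and had 2 and 7 of these reads. PRKCE led with 17, 1 and 6 and 4, 2 and 10 reads, and PRKCI mRNA was at 8.16, 12.1 and 14.5 and 6.61, 4.97 and 6.93 FPKM (adjusted p = 0.0689). The 6 NEK genes had 58 and 32 reads and the 10 STK genes 105 and 72. The 22 genes grouped by name as the MAP kinase cascade, with MAPKAP1, had 278 and 274.

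ROCK1 and ROCK2, which act on the cytoskeleton, had 35 young and 21 adult reads over 21 circRNAs. ROCK1 was among the most abundant kinase mRNAs, at 53.9 to 59.6 FPKM in the young and 50.5 to 64.0 FPKM in the adult group, and its circRNAs had 8, 12 and 5 and 1, 11 and 3 reads. The 4 genes with a CAMK name, CAMKMT among them, had 11 and 10 reads. CAMK2D, the delta subunit of calmodulin-dependent kinase II, was at 19.9 to 26.5 and 29.0 to 44.2 FPKM (log2FC 0.63, adjusted p = 0.0879). The WNK genes, which regulate ion transport, had 11 and 8 reads, and WNK1 mRNA was at 24.3, 29.1 and 30.8 and 41.2, 42.7 and 37.5 FPKM (0.52, adjusted p = 0.0886). Across all families the Spearman correlation of the circRNA change with the mRNA change was 0.11 over 47 genes that share the same libraries. Many of these genes had few circRNA reads and imprecise changes, so the value cannot show how closely both changes are related.

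**Figure D5:**
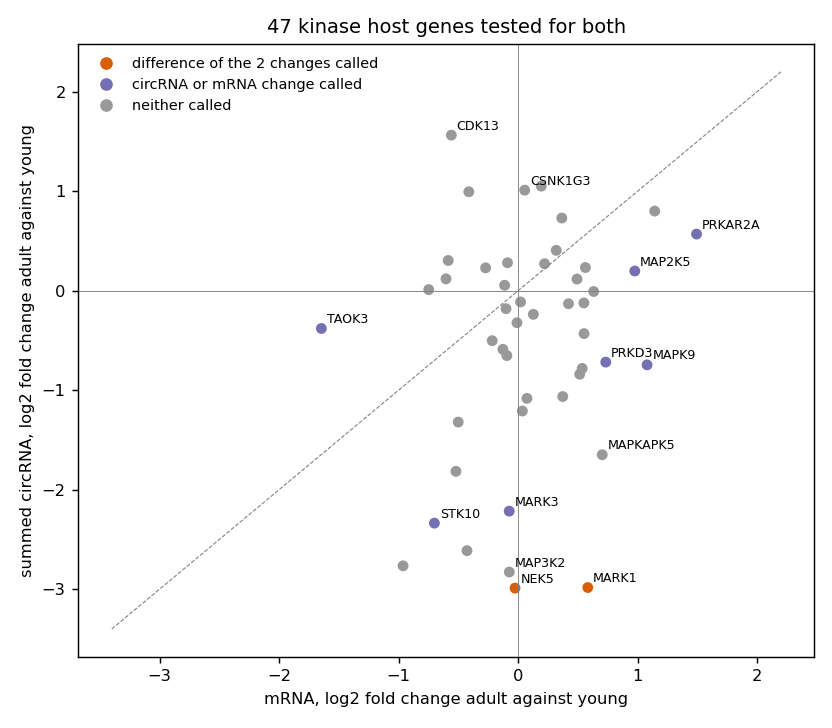
Change of summed circRNA level (y axis) against change of mRNA level (x axis), both as log2 fold change of adult against young on the log2(value + 1) scale, for the 47 kinase host genes tested for both. The dashed line marks equal change. MARK1 and NEK5, in orange, lie 3.57 and 2.96 below the line and had an adjusted p under 0.05 for the difference, NEK5 after entering the test through its young libraries alone, and CDK13 lies 2.12 above it and did not.

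Partners of the kinases were described from lists of genes, of which those named as circRNA hosts could be measured. The mRNA calls below stand against 10.5% called higher and 9.3% called lower over all 14695 genes and transcripts tested. Among RAS-RAF and MAP kinase partners 12 of 25 were tested, and only RPS6KA3 (RSK2, a ribosomal S6 kinase) passed. It rose from 18.2, 22.1 and 17.3 FPKM in the young to 32.9, 30.2 and 32.2 FPKM in the adult libraries (log2FC 0.70, SE 0.18, adjusted p = 0.0351). Among AMPK and mTOR partners 16 of 23 were tested and only ACACA, an enzyme of fatty acid synthesis that AMPK phosphorylates, rose, from 37.6, 24.9 and 52.7 FPKM in the young to 441, 307 and 245 FPKM in the adult libraries (adjusted p = 0.00168). In the Hippo list 8 of 14 were tested and 2 rose. They were MOB1B, a cofactor of the LATS kinases, from 13.2, 17.1 and 18.3 to 45.8, 61.4 and 66.1 FPKM (1.77, SE 0.22, adjusted p = 0.00319), and the transcription factor TEAD1 from 17.6, 20.2 and 25.6 to 44.5, 38.1 and 44.8 FPKM (0.99, adjusted p = 0.0185). Among cAMP and protein kinase A partners 12 of 21 were tested, none rose and the anchoring protein AKAP9 fell from 32.1, 35.4 and 38.6 to 19.4, 21.3 and 17.7 FPKM (−0.83, SE 0.18, adjusted p = 0.0207). Among cyclins and cell cycle genes 7 of 19 were tested and only RB1, the retinoblastoma protein that CDKs phosphorylate, rose (0.98, adjusted p = 0.0334). ACACA and MOB1B still passed without any 1 library (adjusted p up to 0.0171 and 0.0252). Those of RPS6KA3, TEAD1, AKAP9 and RB1 were lost without any 1 adult library (0.0525 to 0.122), RPS6KA3 also without young replicate 1 or 3 (0.0679 and 0.0559) and RB1 without young replicate 1 or 2 (0.0941 and 0.0710). The medians of the 5 lists lay between 0.05 and 0.31, against 0.01 over all.

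Markers of the cell types in the tissue also moved with age, and their part in the results above was not tested. Of 12 adipocyte markers 4 were measured, PLIN4, LPL, CIDEC and PPARG, and all were expressed in every library, with a summed level of 346 to 1668 FPKM in the young and 2676 to 4697 FPKM in the adult libraries, lowest in young replicate 2. Of these only LPL was higher in every adult library, at 57.5 to 331 and 1395 to 3067 FPKM. PLIN4, CIDEC and PPARG overlapped between the groups and did not pass. Of 6 macrophage markers 3 were measured, at 177 to 201 and 60.6 to 97.2 FPKM, and of 5 smooth muscle and pericyte markers 2, at 80.0 to 184 and 30.9 to 48.6 FPKM. Among the macrophage markers CD163 was lower in every adult library, while MRC1 and MSR1 overlapped. Of 8 endothelial markers 7 were measured, at 171 to 371 and 415 to 465 FPKM, and of 8 stromal markers 3, at 895 to 1859 and 811 to 1288 FPKM. Among the endothelial markers VWF, KDR and PTPRB were higher in every adult library, while PECAM1, FLT1, TEK and EMCN overlapped. Of 6 leukocyte markers 2 were measured, at 5.84 to 43.4 and 2.82 to 3.70 FPKM, highest in young replicate 1. None of the measured markers was at 0, and no skeletal muscle marker was measured. LPL, VWF and PTPRB rose, and CD163, THY1, MYH11 and MYLK fell.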

How the data were processed

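Subcutaneous adipose RNA of 3 young and 3 adult buffaloes was measured by rRNA-depleted total RNA sequencing, and only processed tables were used. After trimming with Trim Galore, the authors aligned reads to cattle UMD3.1 by STAR, and CIRCexplorer2 gave the back-spliced junctions. TopHat2 2.0.14 and Cufflinks also appear in the submitters' processing notes. Scaled back-spliced reads were deposited on a log2 scale after adding 1, and so were FPKM of mRNAs and lncRNAs. The p-values and fold changes of circRNAs that the authors deposited were not used. With the log undone, each library has 1 smallest circRNA value, and 100% of its values were whole multiples of it (relative tolerance 1e-06), so reads were recovered by division. Libraries held 10745 to 17680 back-spliced reads.

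Adult and young libraries were compared with limma 3.58.1 (R 4.3.3; moderated by eBayes with a trend, two-sided, Benjamini-Hochberg over all features, threshold 0.05) on log2(value + 1), which understates changes of low values. circRNAs and host gene sums needed a read in at least 3 of 6 libraries, and mRNAs a mean of at least 0.5 FPKM. FPKM were summed over the transcripts that the circRNA table lists for a symbol, for 3995 genes, with unnamed Ensembl transcripts kept as features. Where a group held no read of a circRNA or host gene, its level was set to the scaled value of 3 reads over the group. The fold is a lower bound only for counting error in that group. The mean of the other group was taken as observed, so its own counting error is not covered.

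Named were the 10 host genes and 10 circRNAs with the most reads, the 5 genes with the most circRNAs (more at a tie), members past the threshold in any fit, the 3 smallest p per direction where none passed, MARK1 to MARK4 and members of each family. MAPKAPK5, the second STK3 loop, the loops seen only in the young and the genes named for groups that do not overlap were chosen after their values were seen. Members, gene lists and alternatives were chosen with earlier results of these data known. The alternatives changed pseudocount, filter, scaling, transcript summing and variance model, used voom on recovered reads, took the replicate number as a block and left out each library. The fits were tested on simulated data. Sequences were not analysed here, and results of some genes are not reported here. Gene names are those of the circRNA table, and 77 of the 78 host symbols are among the 179 RefSeq buffalo genes (NDDB_SH_1) that fit the name rule.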

Additional observations from a re-analysis of the deposited data

How the results depend on the processing

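Of 598 values of single genes and circRNAs under an alternative, 470 kept their direction and their side of the threshold, 98 lost and 24 gained the call and 6 changed sign, and the cause was not tested. In parentheses are the calls over all features. No kinase circRNA passed in the main test (25), against 2 without the trend in eBayes (83), 3 with the replicate block (134), 8 with a pseudocount of 0.1 (353), 2 with a read in at least 2 libraries (90), 1 with a read in at least 5 (65), 3 per 10000 back-spliced reads (57), 2 without a filter (52), 5 with voom (261) and 0 to 1 with 1 library left out. Of the host gene sums 2 passed (65), against 0 without the trend (9), 0 with a pseudocount of 0.1 (2), 4 with voom (183) and 0 to 1 with 1 library left out. Of the mRNAs 11 passed (2909), against 4 with the replicate block (1469) and 3 to 12 with 1 library left out. Of the circular minus linear differences 2 passed (33), against 0 without the trend (15), 0 with a pseudocount of 0.1 (3), 1 with a read in at least 5 libraries (34) and 0 to 2 with 1 library left out. The adult minus young difference in distinct kinase circRNAs, −28.7, ran from −42.2 to −20.2 with 1 library left out, and that of the share of reads from −0.242 to 0.0262 percentage points, and both of these alternatives were chosen after seeing the data. The prior degrees of freedom of the circRNA fit were 6.65, against 14225 with the replicate block and 829 with a read in at least 2 libraries, so there the variance came almost wholly from the trend over all circRNAs.

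With 1 library left out, 5 values that never passed the test changed sign. These were the log2 fold changes of the CSNK1G3 loop from position 31516094 (−0.36 without adult replicate 2, 1.19 at the highest), of the CDK19 loop (−0.07 without young replicate 1, −0.64 without adult replicate 3, 0.75 at the highest), of summed DYRK1A (−1.37 to 0.0041), of summed STK3 (−0.25 to 0.77) and of MARK3 mRNA (−0.20 to 0.00078). Over all features, calls with 1 library left out ran from 0 to 15 for circRNAs, 1 to 54 for host gene sums, 920 to 3021 for mRNAs and 1 to 31 for differences.

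The labels record no pairing by replicate number. Same-numbered young and adult libraries had correlations from −0.125 to 0.0361 in their deviations from the group means. Such values cannot show whether the numbers stand for a pairing. The replicate block gave 27 higher and 107 lower circRNAs over all, 22 and 71 host gene sums, 675 and 794 mRNAs and 9 and 88 differences, and 2 kinase host gene sums and 2 differences passed. For single circRNAs each library had its highest correlation with its own number, and for mRNAs its lowest. Host gene sums held to neither order. Few reads per circRNA and 3 animals per group limit what could be detected.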

Other observations

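Long noncoding RNAs (lncRNAs) lie in or beside some of the kinase host genes. The authors placed 21 lncRNAs of 13 kinase host genes, 17 of them intronic, 2 antisense and 2 bidirectional. Their levels in FPKM were compared between the groups by overlap only. Of the 20 with a mean of at least 0.1 FPKM, 4 were lower in every adult library than in any young one and none was higher, against 10.7% and 12.3% of all 9155 lncRNAs at that level. The bidirectional lncRNA of MAP2K5 was at 28.9, 26.5 and 31.2 FPKM in the young and 3.07, 7.23 and 5.10 FPKM in the adult libraries, while MAP2K5 mRNA rose in adults. An intronic lncRNA of the same gene was at 4.23, 3.15 and 1.62 and 0.930, 1.14 and 0.875 FPKM. The others were an intronic lncRNA of NEK11, at 1.55, 1.20 and 2.21 and 0, 0.377 and 0 FPKM, and one of PRKACB, at 5.37, 3.88 and 4.03 and 3.68, 1.98 and 3.80 FPKM. MAP4K3 had 5 lncRNAs and CDK13 had 3, all with overlap between the groups. These lncRNAs were named after their values were seen.

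Tested transcript by transcript, 84 transcripts of the kinase host genes gave 8 higher and 2 lower calls, against 1587 and 1396 over 14994. The 2 transcripts of CDK19 differed in sign, with log2 fold changes of −1.33 (SE 0.39, limma adjusted p = 0.0541) and 1.75 (SE 0.61, adjusted p = 0.0851), and those of PRKAA1 were at −1.36 (SE 0.41, adjusted p = 0.0572) and −0.01 (SE 0.17, adjusted p = 0.964). The difference between transcripts of a gene was not tested.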
